A study of Mus musculus with 10 samples.

Results

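The collagen gene family was examined in RNA from the proximal jejunum of mice that lack HuR in the intestinal epithelium. Its members were the protein-coding genes whose whole symbol is Col, 1 or 2 digits, the letter a, and 1 or 2 digits. This gave 42 of the 24368 genes in the table, 16856 of which are protein-coding. Col4a3bp, which only begins with the pattern, was left out. The members comprise 10 fibrillar collagens, 6 basement membrane collagens (the type IV chains) and 26 other collagens. The last group holds 8 fibril-associated chains, 6 type VI chains, 4 transmembrane chains, 3 short-chain network members, 2 multiplexins, 1 anchoring fibril chain and 2 further genes.

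HuR, encoded by Elavl1, is an RNA-binding protein that stabilises many messages with AU-rich stretches in their 3′ untranslated regions. The 10 libraries came from 5 mice with the genotype HuR cKO, a conditional knockout restricted to the intestinal epithelium, and 5 WT littermates. They are called cKO 1 to 5 and WT 1, 3, 4, 5 and 6 after their labels. The Cre driver, the deleted exons, the sex, the age and the diet were not stated in the labels read here, and the labels name total RNA of proximal jejunum, with no sorting of cells, for all 10 libraries.

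Collagens are extracellular proteins whose chains wind around each other into a helix. Fibrillar collagens (types I, III, V and their relatives) assemble into the fibres that carry tension in the lamina propria and submucosa, and are made mainly by fibroblasts and smooth muscle cells. Type IV collagens form the sheet-like network of the basement membrane under the epithelium and around vessels and muscle, while type VI filaments, fibril-associated chains and multiplexins link these structures to each other and to cells. Most of these chains are known as products of cells other than the epithelium. In RNA from bulk tissue, fewer cells of a type and less RNA per cell cannot be told apart.

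Libraries held 16063987 to 18927440 reads assigned to genes, and mitochondrial genes took 2.69% to 9.48% of them. Values are given as normalised reads, meaning reads after division by the library's size factor. Elavl1 stood at 556 to 725 normalised reads in cKO libraries, against 631 to 709 in WT libraries (log2 fold change -0.08, adjusted p = 0.798, limma). As the deleted exons are not known, this does not check the genotype. In cKO 3 and cKO 5, Per2, a core clock gene, had 12.7 and 16.0 normalised reads, against 342 to 749 in the other 8 libraries. The collagens that passed, and some genes of other lists, are therefore also given without these 2 libraries. Class sums, shares and ratios are given for all 10 libraries only. Of the marker lists, the jejunal enterocyte and epithelial genes were present in every library. Of 4 ileal markers, Fabp6 was below the filter on low values, and the other 3 (Slc10a2, Slc51a and Slc51b) passed it.

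Col3a1, Col1a2 and Col4a1 are well-expressed chains of types III, I and IV, and the results turn on them and their partners. No start-site window was found for Col1a1, so Col1a2 was taken for type I. The sequences around these start sites, from RefSeq (GRCm38.p6), are shown. Each runs 5′ to 3′ from 250 bases before to 50 bases after the start, and the capitals mark 3 motifs or their reverse complements, the CCAAT box, the TATA box TATAAA and the GC box GGGCGG. The windows lie at chr1:45311288-45311587 on the plus strand for Col3a1, chr6:4505368-4505667 on the plus strand for Col1a2 and chr8:11312777-11313076 on the minus strand for Col4a1.
Col3a1: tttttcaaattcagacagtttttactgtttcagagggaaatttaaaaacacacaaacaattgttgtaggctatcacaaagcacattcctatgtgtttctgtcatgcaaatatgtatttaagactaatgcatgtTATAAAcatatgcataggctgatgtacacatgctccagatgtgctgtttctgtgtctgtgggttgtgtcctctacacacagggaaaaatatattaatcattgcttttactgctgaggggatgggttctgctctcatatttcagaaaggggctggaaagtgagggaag
Col1a2: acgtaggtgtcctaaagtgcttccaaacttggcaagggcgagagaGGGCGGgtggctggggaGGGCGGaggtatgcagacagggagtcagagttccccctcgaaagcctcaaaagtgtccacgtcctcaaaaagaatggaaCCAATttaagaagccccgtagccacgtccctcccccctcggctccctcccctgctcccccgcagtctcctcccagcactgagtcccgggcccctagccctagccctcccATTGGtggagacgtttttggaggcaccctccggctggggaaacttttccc
Col4a1: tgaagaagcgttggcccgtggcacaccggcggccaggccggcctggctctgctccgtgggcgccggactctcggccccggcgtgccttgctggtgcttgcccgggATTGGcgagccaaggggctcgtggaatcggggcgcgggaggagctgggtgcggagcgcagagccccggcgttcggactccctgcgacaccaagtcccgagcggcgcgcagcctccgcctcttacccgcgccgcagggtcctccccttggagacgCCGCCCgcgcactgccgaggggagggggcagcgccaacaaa

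The Col3a1 window held 1 TATAAA, 117 bases before the start, and none of the other motifs. The Col1a2 window held 2 matches to CCAAT and 2 to GGGCGG, and the Col4a1 window 1 of each. The Col1a2 window is set on a start at 4505618, where the gene as listed begins at 4504814. On either strand, GGGCGG occurred in 23 of the 37 windows found for 34 collagen genes (62.2%) and in 35.7% of all 32851 RefSeq windows. CCAAT occurred in 13 of the 37 windows, against 37.4% of all windows, and TATAAA in 5 of them, against 13.6% of all. These matches describe letters in a window and are not evidence of binding. Col4a1 and its partner chain Col4a2 start on opposite strands at positions 11312826 and 11312805 of chromosome 8, so their annotated transcripts share 22 bases.

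Of the 42 collagens, 24 had a mean of at least 10 normalised reads over the 10 libraries and were tested. These were 6 fibrillar, 3 basement membrane and 15 other members. Of the 24, 2 rose in cKO at an adjusted p below 0.05 and 0 fell, where 0.441% of the 14062 genes tested rose and 0.882% fell. The 2 genes were Col3a1 and Col1a1, the main chains of types III and I collagen. In simulated data limma found 6.5% of 1.5-fold and 46.2% of 2-fold changes. The number of calls in each class therefore cannot show that the other members were unchanged. A further 6 members were higher in cKO at an unadjusted p below 0.05 (8 in all, where 8.46% of all genes were), and 1 member was lower (10.1% of all genes). In all, 21 of the 24 log2 fold changes were positive, against 51.0% of all genes tested. Their median was 0.41, against 0.01 for all genes tested. In the same libraries the summed fibroblast, smooth muscle and pericyte markers overlapped between the groups, as did the sum of all collagens. Gene by gene, 9 of 13, 10 of 10 and 3 of 4 of these markers had positive log2 fold changes. Their medians were 0.15, 0.10 and 0.39. Of 8 jejunal enterocyte markers 1 was positive, with a list median of -0.36. The summed endothelial markers, Lyve1 among them, and the muscle actin gene Acta1 were higher in every cKO library than in every WT library. The 5 mesothelial markers had a median log2 fold change of 0.68, with 4 higher at an unadjusted p below 0.05, and their sums overlapped between the groups. The part of these markers in the collagen values was not tested.

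Col3a1 lies on chromosome 1 (45311538 to 45349706, plus strand). It encodes the chain of type III collagen, which forms fine fibres in the gut wall. It had 1938, 1742, 2503, 2331 and 1771 normalised reads in cKO 1 to 5, against 1081, 1189, 1097, 1172 and 1542 in WT 1, 3, 4, 5 and 6. The lowest cKO library lay above the highest WT library, and WT 6 stood above the other 4 WT libraries. Col3a1 averaged 2057 ± 343 in cKO libraries and 1216 ± 188 in WT libraries (SD, n = 5 each). The log2 fold change was 0.75 ± 0.16 (SE, 95% interval 0.41 to 1.10), or 1.69-fold, with an adjusted p of 0.0357 in limma.

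Col1a1 lies on chromosome 11 (94936224 to 94953042, plus strand). It encodes the alpha 1 chain of type I collagen, the principal collagen of fibrous tissue. It had 425, 428, 772, 729 and 540 normalised reads in cKO 1 to 5, against 214, 266, 198, 363 and 393 in WT 1, 3, 4, 5 and 6. Here too every cKO library was above every WT library, with cKO 3 and cKO 4 the highest. Col1a1 averaged 579 ± 164 in cKO libraries and 287 ± 87.7 in WT libraries (SD, n = 5 each). Its log2 fold change was 1.02 ± 0.23 (SE, 95% interval 0.53 to 1.51), or 2.03-fold, with an adjusted p of 0.0426 in limma.

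Col1a2 lies on chromosome 6 (4504814 to 4541544, plus strand) and encodes the alpha 2 chain that joins alpha 1 chains in type I collagen. It had 811, 888, 892, 1058 and 701 normalised reads in cKO 1 to 5, against 442, 491, 411, 669 and 641 in WT 1, 3, 4, 5 and 6. The groups again did not overlap, and the distance between cKO 5 and WT 5 was small. The means were 870.2 ± 131 in cKO libraries and 531 ± 117 in WT libraries (SD, n = 5 each). The log2 fold change was 0.73 ± 0.18 (SE, 95% interval 0.35 to 1.10), with an adjusted p of 0.0553 in limma, just above the threshold. DESeq2 on the recovered reads gave an adjusted p of 0.00941 for Col1a2, and edgeR gave 0.0588 with TMM factors and 0.0462 with library totals. In limma with the filter raised to a mean of 50, it was 0.0488. Col1a2 passed in 3 of 20 alternatives. Leaving out 1 library at a time in limma, it passed in 0 of 10 fits, with adjusted p of 0.0536 to 0.151. Without cKO 3 and cKO 5, its log2 fold change was 0.81 (adjusted p = 0.111, limma).

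For Col3a1 and Col1a1 the size of the difference varied little and the call did not hold in every subset of libraries. Without cKO 3 and cKO 5, the log2 fold change of Col3a1 was 0.72 (adjusted p = 0.110) and that of Col1a1 was 0.88 (adjusted p = 0.193), both in limma. Leaving out 1 library at a time, Col3a1 passed in 5 of 10 fits, with log2 fold changes of 0.68 to 0.84. The fits of Col3a1 that missed the threshold were those without WT 1 (adjusted p = 0.0871), WT 3 (0.1001), WT 4 (0.106), WT 5 (0.0787) or cKO 3 (0.0868). Col1a1 passed in 4 of 10 fits, with log2 fold changes of 0.90 to 1.15. It missed the threshold without WT 1 (adjusted p = 0.0996), WT 3 (0.111), WT 4 (0.1205), WT 5 (0.0574), cKO 3 (0.113) or cKO 5 (0.0729).

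**Figure D1:**
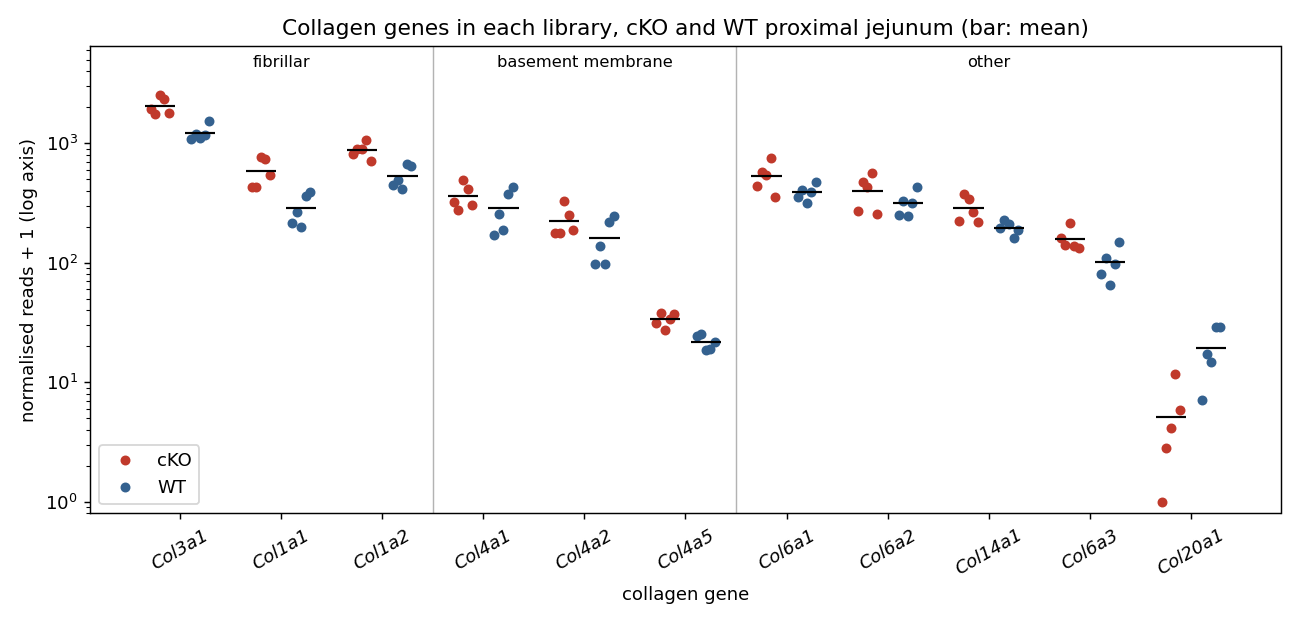
Normalised reads plus 1 on a log axis for the 3 fibrillar, 3 basement membrane and 5 other collagen genes whose values are given by library. Each point is 1 library, cKO left of WT for each gene, and the bar is the mean. The cKO libraries lie above all WT libraries for Col3a1, Col1a1, Col1a2 and Col4a5, and Col20a1 is lower in cKO on average.

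The other fibrillar collagens that were tested did not pass. Col5a1 and Col5a2 encode the chains of type V collagen, which sits in the core of type I fibrils and limits their width. Col5a1 had 35.6, 72.8, 76.1, 101 and 93.0 normalised reads in cKO 1 to 5, against 23.5, 35.4, 40.0, 69.8 and 55.2 in WT 1, 3, 4, 5 and 6. Only cKO 1 lay within the WT range. Col5a1 had a log2 fold change of 0.76 (adjusted p = 0.225, limma). Col5a2, which lies on the opposite strand of chromosome 1 not far from Col3a1, had 129 to 239 in cKO libraries and 103 to 214 in WT libraries, with a log2 fold change of 0.29 (adjusted p = 0.517). Col27a1, a fibrillar chain best known from cartilage, had 22.9 to 43.7 in cKO libraries and 16.4 to 45.5 in WT libraries, with a log2 fold change of 0.00 (95% interval -0.64 to 0.64).

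A further 4 fibrillar genes were too low to test. Col5a3, the third type V chain, averaged 8.51 ± 4.38 normalised reads in cKO libraries and 10.7 ± 6.47 in WT libraries (SD, n = 5 each), and Col11a2 averaged 6.42 ± 3.32 and 6.31 ± 2.56 in cKO and WT libraries. Col24a1 had 16 reads in all over the cKO libraries and 11 over the WT libraries. Col11a1, the cartilage fibril chain, had 1 read in all over the 5 cKO libraries and 0 over the 5 WT libraries. The fibrillar log2 fold changes that were tested ran from 0.00 to 1.02, with a median of 0.74. With the filter removed so that all 10 fibrillar members counted, the median was 0.23.

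**Figure D2:**
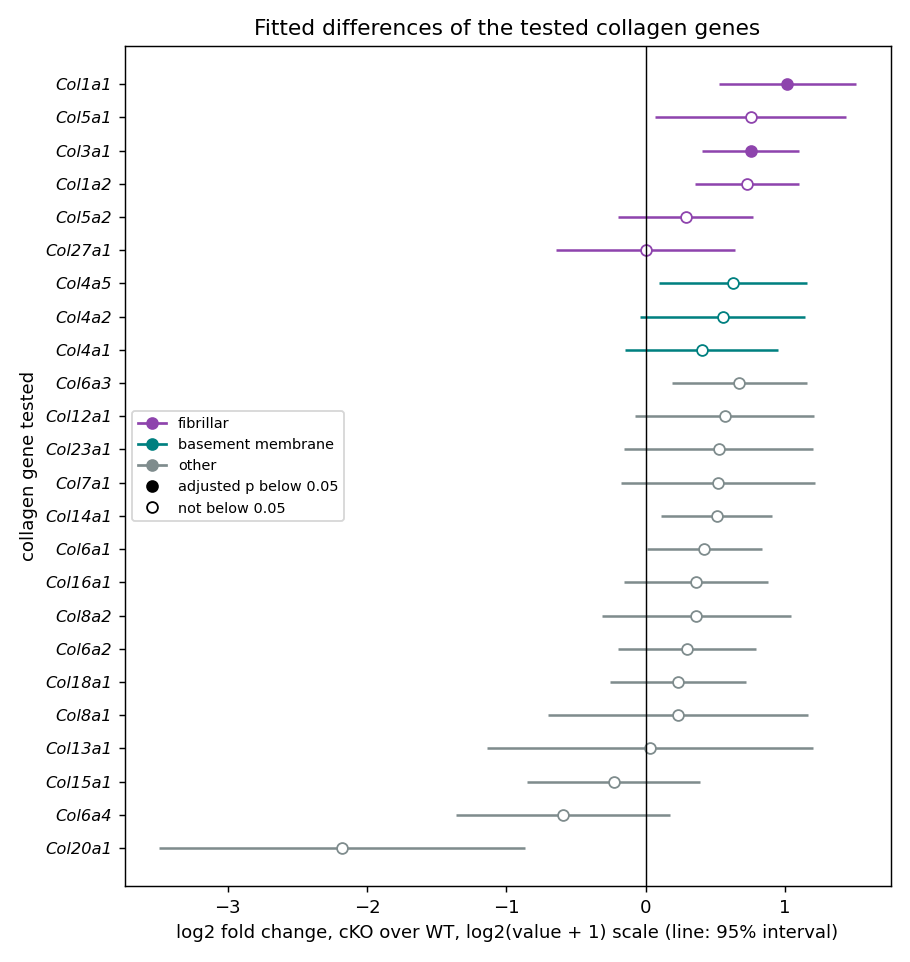
Log2 fold changes, cKO over WT, of the 24 tested collagen genes on the log2(value + 1) scale, grouped by class. Points are limma estimates, lines their 95% intervals, and filled points have an adjusted p below 0.05. Filled points are Col3a1 and Col1a1, and 3 estimates lie below 0 (Col15a1, Col6a4 and Col20a1).

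Among basement membrane collagens, 0 of the 3 tested members passed in limma, 1 had an unadjusted p below 0.05, and 0 passed in edgeR or DESeq2. Their log2 fold changes were 0.40, 0.55 and 0.63, with a median of 0.55. Col4a1 and Col4a2 encode the alpha 1 and alpha 2 chains that pair in nearly all basement membranes. Col4a1 had 319, 273, 492, 413 and 301 normalised reads in cKO 1 to 5, against 169, 256, 186, 378 and 428 in WT 1, 3, 4, 5 and 6. The groups overlapped, and WT 5 was above 3 and WT 6 above 4 of the cKO libraries. For Col4a1 the log2 fold change was 0.40 (SE 0.26, adjusted p = 0.414, limma).

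Col4a2 followed the same order of libraries closely. It had 177, 176, 330, 249 and 185 normalised reads in cKO 1 to 5, against 97.2, 138, 96.5, 217 and 245 in WT 1, 3, 4, 5 and 6. WT 5 and WT 6 were again the high WT libraries. For Col4a2 the log2 fold change was 0.55 (SE 0.28, adjusted p = 0.299). The 22 shared bases of the Col4a1 and Col4a2 transcripts are few against their lengths of 7464 and 6619 bases.

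Col4a5, a chain of the alpha 3, 4 and 5 network that is encoded on the X chromosome, had 30.5, 37.3, 26.2, 33.0 and 36.1 normalised reads in cKO 1 to 5. The WT values were 23.5, 24.3, 17.5, 18.0 and 20.6 in WT 1, 3, 4, 5 and 6. All cKO libraries were above all WT libraries, as for Col3a1, Col1a1 and Col1a2, which makes 4 of the 24 tested members, where 1.86% of all genes tested showed this. In 0 of the 24 were all cKO libraries below all WT libraries, where 3.01% of all genes tested were. Col4a5 had a log2 fold change of 0.63 (SE 0.25, adjusted p = 0.198, limma).

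The remaining type IV chains were below the filter. Col4a4 had 12.7, 23.6, 11.9, 10.7 and 9.62 normalised reads in cKO 1 to 5, against 3.07, 8.10, 3.90, 5.99 and 6.50 in WT 1, 3, 4, 5 and 6. The groups did not overlap, and its mean of 9.61 placed it just outside the filter. With no filter its unadjusted p was 0.0113 and its adjusted p was 0.215 in limma. Col4a3, its neighbour on the opposite strand, averaged 6.43 ± 3.94 in cKO libraries and 7.09 ± 5.37 in WT libraries, and Col4a6 averaged 6.93 ± 2.96 and 5.72 ± 5.68 in cKO and WT libraries (SD, n = 5 each).

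Of the 15 other collagens that were tested, 0 passed in limma or edgeR and 1, Col20a1, passed in DESeq2. In limma, 3 were higher and 1 was lower at an unadjusted p below 0.05, and the median log2 fold change was 0.36. Type VI collagen forms beaded filaments near cells and basement membranes from an alpha 1, an alpha 2 and a longer chain. Col6a1 had 435, 572, 539, 745 and 355 normalised reads in cKO 1 to 5, against 352, 407, 313, 389 and 470 in WT 1, 3, 4, 5 and 6. Only cKO 2, cKO 3 and cKO 4 were above the highest WT library. Col6a1 had a log2 fold change of 0.42 (SE 0.19, adjusted p = 0.260, limma).

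Col6a2 had 270, 472, 430, 562 and 253 normalised reads in cKO 1 to 5. It had 252, 329, 245, 316 and 431 in WT 1, 3, 4, 5 and 6. The groups overlapped over most of the WT range. Its log2 fold change was 0.30 (SE 0.23, adjusted p = 0.512). Col6a3, the most usual long chain, had 160, 140, 212, 138 and 131 in cKO 1 to 5, against 79.8, 109, 64.3, 96.8 and 149 in WT 1, 3, 4, 5 and 6. WT 6 alone reached into the cKO range of Col6a3, whose log2 fold change was 0.67 (SE 0.23, adjusted p = 0.138).

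The alternative long chains of type VI differed in level and in sign. Col6a4 had 26.7 to 112 normalised reads in cKO libraries and 44.6 to 118 in WT libraries, with a log2 fold change of -0.59 (adjusted p = 0.391, limma). Col6a5 was below the filter with a mean of 10.6 ± 5.43 in cKO libraries and 3.68 ± 2.61 in WT libraries (SD, n = 5 each), and 4 of its 5 cKO libraries were above the highest WT library. Col6a6 had 2 reads in all, both in WT 3.

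Col14a1, a fibril-associated collagen that coats the surface of fibrils, had 221, 372, 343, 266 and 219 normalised reads in cKO 1 to 5. It had 192, 229, 210.5, 160 and 188 in WT 1, 3, 4, 5 and 6. The WT 3 library lay above cKO 1 and cKO 5, and the other 3 cKO libraries lay above all WT libraries. For Col14a1 the log2 fold change was 0.51 (SE 0.19, adjusted p = 0.164, limma). Col12a1, a close relative, had 34.3 to 65.8 in cKO libraries and 17.0 to 49.8 in WT libraries (log2 fold change 0.57, adjusted p = 0.326), and Col16a1 had 28.2 to 51.2 in cKO libraries and 26.6 to 35.1 in WT libraries (0.37, adjusted p = 0.436).

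Col20a1 was the one collagen far lower in cKO, at low read numbers. It is a little studied fibril-associated chain on chromosome 2. It had 0, 1.82, 3.17, 10.7 and 4.81 normalised reads in cKO 1 to 5, against 6.14, 16.2, 13.6, 27.9 and 28.2 in WT 1, 3, 4, 5 and 6. These stand for 22 reads over the cKO libraries and 90 over the WT libraries, and cKO 4 lay above WT 1. The log2 fold change was -2.18 (SE 0.62), with an adjusted p of 0.0897 in limma, 0.0899 in edgeR and 0.0175 in DESeq2. Without cKO 4 the limma adjusted p was 0.0317 and the log2 fold change -2.58, and over all alternatives its adjusted p reached 0.236. Col20a1 passed the filter only through its WT libraries. It overlaps 9230112E08Rik on the same strand by 741 bases, and the reads of the shared bases could belong to either gene.

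The other members of this class are given by range. Col23a1, a transmembrane collagen, had 35.2 to 113 normalised reads in cKO libraries and 41.5 to 73.6 in WT libraries (log2 fold change 0.53, adjusted p = 0.390). Col7a1, the anchoring fibril chain that ties basement membrane to the matrix below, had 35.6 to 107 in cKO libraries and 29.7 to 74.7 in WT libraries (0.52, adjusted p = 0.406). The network chains Col8a2 and Col8a1 had log2 fold changes of 0.36 and 0.23, and Col13a1, a transmembrane collagen, of 0.03. The sign for Col13a1 and Col8a1 turned when some libraries were left out, and that of Col27a1 with the choice of test as well. The multiplexins Col18a1, the source of endostatin, and Col15a1 had log2 fold changes of 0.23 and -0.23. Col18a1 overlaps Slc19a1 by 8825 bases on the opposite strand, and whether the counting used strand is not given.

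A last 11 other collagens were not tested, Col6a5 and Col6a6 among them. Of the rest, Col9a1, Col9a2 and Col9a3, which coat cartilage fibrils, had 11, 4 and 4 reads over the cKO libraries and 14, 5 and 10 over the WT libraries. Col28a1 had 12 reads in cKO and 2 in WT, Col26a1 9 and 1, Col22a1 3 and 11, Col17a1 6 and 5, and Col25a1 6 and 4, each over 5 cKO and 5 WT libraries. Col10a1, known from growth plate cartilage, had 3 reads in cKO libraries and 0 in WT libraries and lies within Nt5dc1 on the opposite strand. In all, 28 of the 42 members had at least 1 read in each of the 10 libraries.

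Levels between genes were compared per kilobase of the gene length in the table, which counts the annotated exons of a gene and is not the length of 1 transcript. Over the 10 libraries, Col3a1 was highest with a mean of 167 normalised reads per kilobase, followed by Col6a1 with 104, Col1a1 with 66.0 and Col1a2 with 56.4. Col4a1 and Col6a2 stood at 43.1 and 42.7, Col14a1 at 34.2, Col18a1 at 29.4, Col4a2 at 28.9 and Col5a2 at 17.0. Neighbours such as Col1a1 and Col1a2, or Col4a1 and Col6a2, lay within each other's spread. In cKO libraries Col1a1 averaged 88.2 ± 25.0 per kilobase and Col1a2 70.0 ± 10.5, and in WT libraries they averaged 43.7 ± 13.4 and 42.7 ± 9.45 (SD, n = 5 each).

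Summed per kilobase, all 42 collagens came to 807 ± 150.1 in cKO libraries and 547 ± 112 in WT libraries (SD, n = 5 each). Of the cKO libraries, 3 lay above the highest WT library. The fibrillar sum was 400.3 ± 72.9 in cKO libraries, from 341 to 484, and 236 ± 46.8 in WT libraries, from 195 to 305, with no overlap. Col3a1 alone contributed 209.6 ± 34.9 to it in cKO libraries and 124 ± 19.1 in WT libraries. Col1a1 contributed 88.2 ± 25.0 and 43.7 ± 13.4, and Col1a2 70.0 ± 10.5 and 42.7 ± 9.45, in cKO and WT libraries. Most of the fibrillar sum thus came from these 3 genes, whose groups did not overlap singly. Col5a2, the next, had 18.7 ± 4.84 and 15.4 ± 4.51. The basement membrane sum was 89.6 ± 21.6 in cKO libraries and 67.0 ± 25.0 in WT libraries, and the sum of the other collagens was 317 ± 70.8 and 244 ± 42.1 in cKO and WT libraries. Both of these overlapped between the groups.

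As a share of the collagen sum, fibrillar genes took 49.7% ± 3.22 in cKO libraries and 43.2% ± 0.891 in WT libraries (SD, n = 5 each). The lowest and highest cKO shares were 44.6% in cKO 2 and 52.5% in cKO 5, and WT libraries spanned 42.1% to 44.1%, so the nearest values of the groups were close. Basement membrane genes took 11.1% ± 1.27 in cKO libraries and 11.9% ± 2.30 in WT libraries. The other collagens took 39.2% ± 4.26 and 44.8% ± 2.52 in cKO and WT libraries. Counted over all assigned reads, collagens took 0.0402% ± 0.0110 in cKO libraries and 0.0245% ± 0.00458 in WT libraries.

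**Figure D3:**
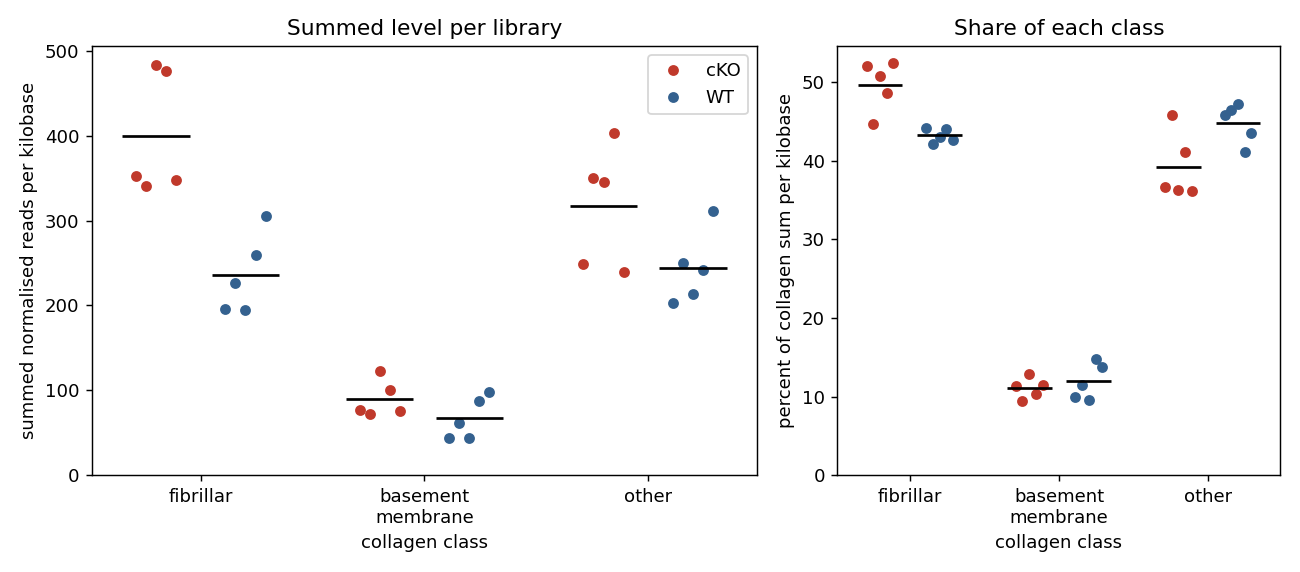
Summed normalised reads per kilobase of the fibrillar, basement membrane and other collagens in each library, and each class as a percent of the collagen sum. Points are libraries, cKO left of WT, and bars are means. The fibrillar sum and the fibrillar share do not overlap between cKO and WT libraries, and the remaining sums and shares do. Col3a1, Col1a1 and Col1a2 make up most of the fibrillar sum.

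Ratios within a library do not depend on the size factor. All but Col3a1 over Col1a1, which belong to different collagen types, compare chains of 1 type that assemble together. The ratio of Col1a1 to Col1a2 per length was 1.26 ± 0.307 in cKO libraries, with 0.991, 0.914, 1.64, 1.30 and 1.46 in cKO 1 to 5. In WT libraries it was 1.01 ± 0.102, with 0.916, 1.03, 0.911, 1.03 and 1.16 in WT 1, 3, 4, 5 and 6. The ratios of cKO 1 and cKO 2 lay within the WT range, and the highest ratios were those of cKO 3, cKO 5 and cKO 4. The ratio of Col3a1 to Col1a1 was 2.45 ± 0.411 in cKO libraries and 2.97 ± 0.611 in WT libraries, with overlap.

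The type IV partners kept the tightest ratio. Col4a1 over Col4a2 was 1.44 ± 0.105 in cKO libraries, from 1.32 to 1.60, and 1.60 ± 0.0778 in WT libraries, from 1.54 to 1.71. Only cKO 1 reached the WT range. Col6a1 over Col6a2 was 2.59 ± 0.301 and 2.37 ± 0.210 in cKO and WT libraries, and Col6a1 over Col6a3 was 9.54 ± 3.39 and 11.0 ± 1.79. Col5a1 over Col5a2 spread widest for its mean, at 0.502 ± 0.219 in cKO libraries and 0.347 ± 0.122 in WT libraries (all SD, n = 5 each).

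**Figure D4:**
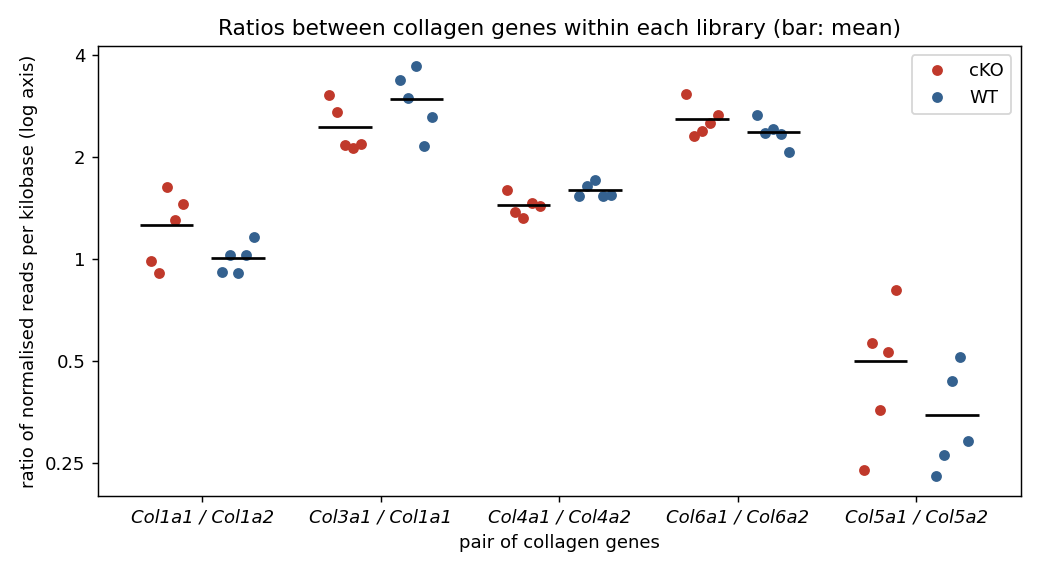
Ratios of normalised reads per kilobase between collagen genes within each library, on a log axis. Points are libraries, cKO left of WT for each pair, and bars are means. The groups overlap for every pair shown, and Col4a1 over Col4a2 varies least among libraries.

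The authors' deposited table holds 2 further per-sample columns not used here, and which libraries its comparison took is not stated. It gave an adjusted p below 0.05 for the same 2 collagens. In the authors' deposited table Col3a1 had a log2 fold change of 0.63 (adjusted p = 0.00973) and Col1a1 one of 0.82 (adjusted p = 0.0288). Of all 24368 genes in the authors' deposited table, 0.96% were higher at that threshold and 2.49% differed in either direction. It listed 30 of the 42 collagens with a positive and 12 with a negative log2 fold change. The share of positive values over all its genes was not counted. The authors' median was 0.17 over all 42 collagens, low members included, and 0.18 over the 10 fibrillar ones. Col1a2 had 0.51 there (adjusted p = 0.129, authors' deposited table), and Col14a1 had 0.08, against 0.51 in limma.

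Collagen chains depend on enzymes and partners from transcription to breakdown, and 7 lists of such genes were read beside the collagens. Over all genes tested in limma, 8.46% were higher and 10.1% lower in cKO at an unadjusted p below 0.05. At an adjusted p below 0.05, 0.441% were higher and 0.882% lower. The list for folding and modification in the endoplasmic reticulum had 19 genes tested, none of which passed, with 1 higher and 1 lower at an unadjusted p below 0.05. It split into 9 positive and 10 negative log2 fold changes, with a median of -0.07. Creb3l1, a transcription factor of the secretory pathway that drives collagen genes in osteoblasts, had 87.3 ± 18.7 normalised reads in cKO libraries and 55.4 ± 10.7 in WT libraries (log2 fold change 0.64, adjusted p = 0.147, limma). P4ha1, the catalytic subunit of a prolyl hydroxylase, had 233 ± 65.7 in cKO libraries and 323 ± 64.0 in WT libraries (-0.50, adjusted p = 0.221).

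The list for procollagen cleavage and cross-linking had 10 genes tested, none of which passed, with 5 higher and 1 lower at an unadjusted p below 0.05. Its median log2 fold change was 0.61, and 9 of the 10 were positive. Lox, the lysyl oxidase that cross-links collagen and elastin, had 21.6, 26.4, 55.5, 24.5 and 33.7 normalised reads in cKO 1 to 5, against 11.3, 14.2, 12.7, 18.9 and 17.3 in WT 1, 3, 4, 5 and 6. The groups did not overlap, and cKO 3 was the highest. Its log2 fold change was 1.01 (adjusted p = 0.114, limma), and 0.68 (adjusted p = 0.434) without cKO 3 and cKO 5. Adamts2, the protease that removes the amino-terminal propeptide of procollagens, had 87.8 ± 29.5 in cKO libraries and 49.0 ± 6.69 in WT libraries (0.77, adjusted p = 0.129).

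The breakdown list had 12 genes tested, of which 1 rose and 1 fell. Mmp15, a membrane-type matrix metalloproteinase, fell to 63.6, 68.2, 50.7, 56.5 and 51.3 normalised reads in cKO 1 to 5, against 101, 209.6, 87.7, 172 and 108 in WT 1, 3, 4, 5 and 6. The groups did not overlap, and WT libraries varied far more than cKO libraries. For Mmp15 the log2 fold change was -1.14 (SE 0.24, adjusted p = 0.0353, limma). Timp3, an inhibitor of metalloproteinases that is bound to matrix, rose to 312 ± 50.4 in cKO libraries, against 189 ± 29.0 in WT libraries (SD, n = 5 each). The log2 fold change of Timp3 was 0.72 (SE 0.17, adjusted p = 0.0466), and it lies within Syn3 on the opposite strand, which averaged 2.14 normalised reads.

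Both calls in the breakdown list were lost without cKO 3 and cKO 5, at an adjusted p of 0.166 for Mmp15 and 0.203 for Timp3. Leaving out 1 library at a time, Mmp15 passed in 3 of 10 fits, those without cKO 1, cKO 2 or cKO 4, and its adjusted p otherwise ran up to 0.102, without WT 3. Timp3 passed in 2 of 10 fits, those without cKO 1 or cKO 4, and its adjusted p otherwise ran up to 0.133, without WT 3. With library totals in edgeR the adjusted p was 0.0516 for Mmp15 and 0.0651 for Timp3, and with no filter that of Timp3 was 0.0689. The log2 fold changes in the fits with 1 library left out were -1.27 to -0.96 for Mmp15 and 0.63 to 0.79 for Timp3. The list as a whole had 6 positive and 6 negative values, with a median of 0.01.

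The receptor list had 7 genes tested and none that passed, with 1 higher and 1 lower at an unadjusted p below 0.05 and a median of 0.38. Its kinase members pointed apart. Ddr2, the discoidin domain receptor of mesenchymal cells, had 364 ± 149.5 normalised reads in cKO libraries and 200.4 ± 62.1 in WT libraries (log2 fold change 0.83, adjusted p = 0.123, limma). Ddr1, its epithelial counterpart, had 814 ± 253 in cKO libraries and 1218 ± 342 in WT libraries (-0.60, adjusted p = 0.172).

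The list of fibril-associated matrix proteins had 21 genes tested and none that passed, with 7 higher and 1 lower at an unadjusted p below 0.05. Of these, 19 had positive log2 fold changes, and the median was 0.38. Eln, which encodes elastin, had 28.0, 42.7, 57.9, 67.1 and 44.1 normalised reads in cKO 1 to 5, against 11.3, 12.2, 25.3, 22.9 and 24.9 in WT 1, 3, 4, 5 and 6. The groups did not overlap, and the log2 fold change was 1.29 (adjusted p = 0.0625, limma). Fbln1, a fibulin of elastic fibres and basement membranes, had 1286, 2212, 1268, 1607 and 2232 in cKO 1 to 5, against 2925, 2995, 2782, 2388 and 2931 in WT 1, 3, 4, 5 and 6. All its cKO libraries lay below all WT libraries, with a log2 fold change of -0.74 (adjusted p = 0.0639).

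The list of non-collagen basement membrane genes had 15 tested and none that passed, with 4 higher and 0 lower at an unadjusted p below 0.05 and a median of 0.31. Lamc1, the gamma 1 chain of most laminins, had 170 ± 30.2 normalised reads in cKO libraries and 118 ± 15.6 in WT libraries, without overlap (log2 fold change 0.52, adjusted p = 0.144, limma). Lama4, a laminin chain of vessels and muscle, had 125 ± 39.4 in cKO libraries and 78.9 ± 23.4 in WT libraries (0.65, adjusted p = 0.171).

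TGF-beta is a secreted ligand that raises collagen expression in fibroblasts. Its list had 16 genes tested and none that passed, with 6 higher and 2 lower at an unadjusted p below 0.05 and a median of 0.19. Tgfbr2, the type II receptor, had 464, 628, 866, 541 and 844 normalised reads in cKO 1 to 5, against 357, 374, 399, 402 and 393 in WT 1, 3, 4, 5 and 6. The groups did not overlap, and cKO 3 and cKO 5 were the highest. Its log2 fold change was 0.75 (adjusted p = 0.0516, limma), and 0.49 (adjusted p = 0.244) without these 2 libraries. Tgfb3, a ligand, had 141 ± 53.1 in cKO libraries and 84.3 ± 7.69 in WT libraries (0.67, adjusted p = 0.130).

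The tests on recovered reads gave more calls in some of these lists. Over all 14062 genes tested, edgeR with TMM factors called 72 higher (0.512%) and 109 lower at an adjusted p below 0.05. DESeq2 called 323 higher (2.3%) and 415 lower. In edgeR with TMM factors, Mmp10 and Tgfbr2 passed in addition to Mmp15 and Timp3, at adjusted p of 0.0495 and 0.0461, and 0 genes of the other 5 lists did. In DESeq2, 2 genes of the cleavage and cross-linking list were higher (Lox and Adamts2), 5 of the matrix list were higher and 1 lower (Fbln1), and Tgfbr2 was higher, and 0 passed in the folding, receptor and basement membrane lists.

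**Figure D5:**
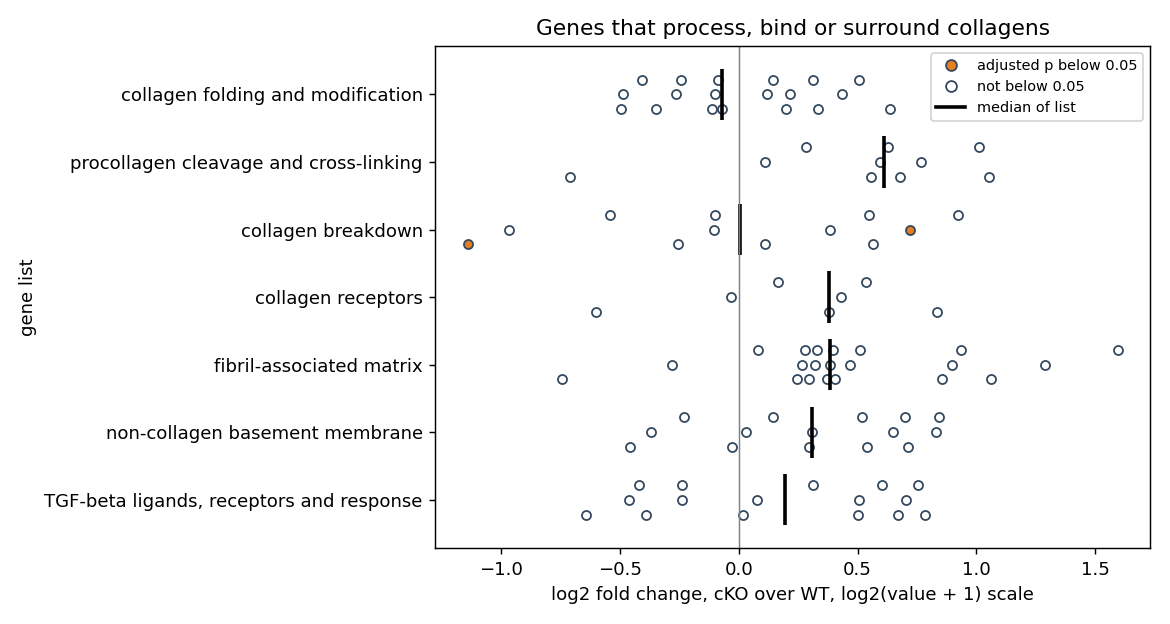
Log2 fold changes, cKO over WT, of the tested genes in 7 lists of genes that process, bind or surround collagens, on the log2(value + 1) scale. Each circle is 1 gene, the bar is the list's median, and filled circles have an adjusted p below 0.05. The filled circles are Timp3, at 0.72, and Mmp15, at -1.14, and the medians run from -0.07 to 0.61.

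Markers of the cells that make collagens, and of others the tissue could hold, were read in the same libraries. The counts stand beside 8.46% of all genes higher and 10.1% lower at an unadjusted p below 0.05 in limma. At an adjusted p below 0.05 the shares were 0.441% and 0.882%. None of the 13 fibroblast markers tested passed, with 0 at an unadjusted p below 0.05 and a median log2 fold change of 0.15. Their sum per kilobase was 2027 to 2645 in cKO libraries and 1923 to 2543 in WT libraries. None of the 10 smooth muscle markers and none of the 4 pericyte markers passed, with 0 at an unadjusted p below 0.05 and medians of 0.10 and 0.39. The smooth muscle sum was 8808 to 22369 per kilobase in cKO libraries and 10446 to 16968 in WT libraries, and the pericyte sum was 743 to 2262 and 916 to 1275 in cKO and WT libraries. For these 3 lists edgeR and DESeq2 also gave 0 calls. Of 10 endothelial markers 1 rose, Lyve1, a marker of lymphatic vessels and some macrophages, with 856 ± 220.0 normalised reads in cKO libraries and 274 ± 74.0 in WT libraries (log2 fold change 1.63, adjusted p = 0.00272, limma). The endothelial sum was 312 to 530 per kilobase in cKO libraries and 149 to 224 in WT libraries, without overlap. Lyve1 is part of this sum, and the sum without Lyve1 was not computed. Of the 10 endothelial markers, 9 had positive log2 fold changes, with a median of 0.67, and 3 were higher at an unadjusted p below 0.05.

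Of 5 markers of mesothelium, the cell layer on the outer face of the gut, 1 rose, Upk1b, with 218 ± 31.5 normalised reads in cKO libraries and 120.4 ± 26.9 in WT libraries (log2 fold change 0.86, adjusted p = 0.0386). All 5 mesothelial markers had positive log2 fold changes, with a median of 0.68, and 4 were higher at an unadjusted p below 0.05. Their sum was 292 to 685 per kilobase in cKO libraries and 239 to 383 in WT libraries. Among 3 skeletal muscle markers, Acta1 rose, with 21359 ± 3135 normalised reads in cKO libraries and 271 ± 160.2 in WT libraries (log2 fold change 6.46, adjusted p = 5.27e-08), and carried most of a list sum of 10616 to 16120 per kilobase in cKO libraries and 151 to 435 in WT libraries. Ckm had 157 ± 48.1 in cKO libraries and 160.2 ± 44.7 in WT libraries. Among 3 ileal markers tested, Slc51b rose (log2 fold change 0.79, adjusted p = 0.0421), and the list sum was 4673 to 7429 per kilobase in cKO libraries and 3327 to 4957 in WT libraries. None of the 7 macrophage, 4 adipocyte, 6 enteric neuron and glia, 8 epithelial, 8 jejunal enterocyte or 1 cartilage and bone markers passed in limma or edgeR, and in DESeq2 1 did, the jejunal gene Apoa4, which was lower. The median log2 fold changes were 0.25, 0.16, -0.18, -0.14, -0.36 and 1.27 in that order of lists. At an unadjusted p below 0.05, 1 macrophage marker was higher, 1 neuronal or glial and 4 jejunal enterocyte markers were lower, and 0 adipocyte, epithelial or cartilage and bone markers differed. None of the listed genes in the table was at 0 in all 10 libraries.

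HuR is known to bind AU-rich words such as ATTTA, written as DNA, and these were counted in 3′ untranslated regions of the GENCODE M21 annotation (GRCm38). At least 1 ATTTA occurred in 30 of 42 collagens (71.4%) and in 13 of the 24 tested collagens (54.2%), against 66.3% of 12778 tested genes with such a region. Col3a1 had 2 words in 959 bases, Col1a1 had 2 in 1423 bases, and Col1a2 had 0 in 882 bases. The words of the 2 collagens that rose are shown with 8 bases on either side, with ATTTA in capitals. They lie on the plus strand at chr1:45348840-45348860 and chr1:45349430-45349450 for Col3a1, and at chr11:94952023-94952043 and chr11:94952714-94952734 for Col1a1.
Col3a1, first word: ttccagttATTTAtttccaaa
Col3a1, second word: attttcacATTTAgaactcca
Col1a1, first word: ctccccaaATTTAagtctccc
Col1a1, second word: aaggtgctATTTAacaaggga

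Among the well-expressed members, Col1a2, Col4a2, Col6a1, Col6a2 and Col14a1 held no ATTTA, and Col5a2 held 6 in 1763 bases. These counts describe the annotated sequence and say nothing of binding.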

How the data were processed

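RNA was measured in 5 cKO and 5 WT libraries of mouse proximal jejunum, 1 per mouse per the series' design text. Per the submitters' processing notes, the tools were CASAVA, HISAT2 2.0.5, featureCounts 1.5.0-p3 and DESeq2 1.20.0, with the build mm10. No label states the strand setting, the annotation release, any batch or how multi-mapping reads were handled, so values of overlapping genes are uncertain. The deposited values are a normalised signal, in the authors' table, of counts scaled by each library's size factor. Divided by the smallest step of the library, 100% of values were whole within 0.001, so reads could be recovered. The authors' deposited log2 fold changes and p-values were used only where named. The table has 2 further per-sample columns that match no label and were not used.

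Since the unit was normalised values, limma 3.58.1 in R 4.3.3 was fitted to log2(value + 1) of the 14062 genes with a mean of 10 or more, with an intensity trend and robust moderation. The Benjamini-Hochberg adjustment ran over all of these genes, with a threshold of 0.05. Folds are on the log2(value + 1) scale and understate changes of low genes. Alternatives were edgeR 4.0.16 and DESeq2 1.42.0 on recovered reads, other pseudocounts and filters, a replicate block, and libraries left out. edgeR with TMM factors called 181 genes and DESeq2 738. The fits were tested on simulated data. Tables were handled in Python 3.11.15 with pandas 2.3.3 and figures drawn with matplotlib 3.10.9.

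Classes followed the known collagen types. Values by library are given for members past the threshold, and for the 3 of each class with the highest mean per kilobase or the smallest p. Col5a1, Col4a4 and the low members were added after their values were seen. From each other list the genes past the threshold are named, otherwise the 2 with the smallest p. Members and lists were chosen with earlier results of these data known.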

Additional observations from a re-analysis of the deposited data

Results flagged for a closer look

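In 104 groups of 5 libraries, 1 per gene and genotype, 4 held a library far from the other 4 by Dixon's criterion (above 0.71 of the range), where chance gives about 1 in 20 groups. Col3a1 in WT 6 had 1542 normalised reads, against 1081 to 1189 in the other WT libraries. Col15a1, the multiplexin of type XV, was also highest in WT 6, at 39.0 normalised reads against 16.6 to 22.9. Ddr1 in WT 5 had 1820 normalised reads, against 1007 to 1152 in the other WT libraries. Tgfb3 in cKO 3 had 232 normalised reads, against 95.4 to 135 in the other cKO libraries.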

How the results depend on the processing

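In the main fit 2 collagens passed the test, and over 20 alternatives the count was similar in 12 and moved in 8. It was 4 in DESeq2 (Col3a1, Col1a1 and Col1a2 higher, where 2.3% of all genes were, and Col20a1 lower). With Col1a2 added it was 3, both in edgeR with library totals and with a mean of 50 or more. Without cKO 3 and cKO 5 it was 0. With 1 library left out it was 0 to 3 (3 without cKO 4, where Col20a1 was lower). All genes past the test numbered 186, with 738 in DESeq2, 56 without cKO 3 and cKO 5, and 30 to 611 with 1 library left out. With library totals in edgeR the median of all genes moved to 0.14 and the calls split into 86 higher and 74 lower, against 62 and 124. The fibrillar median of 0.74 was 0.23 with no filter on low values and 0.66 without cKO 3 and cKO 5. The medians of the basement membrane and other collagens moved by less than the spread between libraries in all 20 alternatives.

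Signs turned for 3 of the 24 tested collagens, none of which passed. Col27a1 was -0.034 in DESeq2, -0.027 in edgeR with TMM factors, -0.0039 with log2(value + 5) and -0.20 to 0.16 with 1 library left out. Col8a1 was -0.034 without cKO 3 and cKO 5 and -0.079 (without cKO 4) to 0.56 with 1 library left out. Col13a1 was -0.18 in 8 libraries with or without the replicate block and -0.25 to 0.47 with 1 library left out. The causes were not tested. Genes short of the threshold that passed in some alternatives were Tgfbr2 (6), Col1a2 (3), Col20a1, Eln and Fbln1 (2 each) and Lox and Adamts2 (1 each).

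Replicate numbers were shared by 4 cKO and 4 WT libraries, and the labels do not state whether they pair mice. Correlations of same-numbered libraries ran from -0.105 to 0.118, against -0.228 to 0.264 for other pairs. Of the 4 cKO libraries, 0 was closest to its own number. With only 4 pairs, this check cannot exclude a pairing. In these 8 libraries 134 genes passed with the replicate block and 89 without, Col3a1 and Col1a1 in both fits.

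Depth limits members of a few reads, such as Col11a1 and Col10a1, for which no difference was detectable.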
